A study of Mus musculus with 24 samples.

Results

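Expression of 7 genes of the glucocorticoid pathway was examined in sorted CD4 T cells: Nr3c1, which encodes the glucocorticoid receptor, and Tsc22d3, Fkbp5, Per1, Ddit4, Klf9 and Sgk1, which are known targets of that receptor. They are 7 of the 39056 genes in the deposited count table and were found by matching its Ensembl IDs to gene symbols. The set was selected on the observation that Nr3c1 and Tsc22d3 differ between groups of these libraries. Levels and fold changes of Nr3c1 and Tsc22d3 are therefore given as a description with no test, and the other 5 genes were tested. Those 5 were also chosen with earlier results of these data known. All 7 genes passed the filter on low counts.

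The data are total RNA-seq counts from CD4 T cells of NZBWF1/j females; these mice are hybrids prone to a disease that resembles human lupus. Treated mice received recombinant OX40L of mouse origin, which binds the costimulatory receptor OX40, and recombinant mouse JAG1, a ligand of Notch receptors. Both proteins were injected into the peritoneum at 2 mg/kg each, once weekly in 3 weeks from 23 weeks of age. Control mice of the same age and sex received PBS, and cells of both groups were collected at 26 weeks. In treated and in control mice, 4 subsets were sorted: conventional cells (Tconv, CXCR5- GITR-), regulatory cells (Treg, CXCR5- GITR+), follicular helper cells (TFH, CXCR5+ PD1-high with no or low GITR) and follicular regulatory cells (TFR, which are CXCR5+ PD1-high GITR-high). There were 8 groups with 3 libraries in each. Whether a library is 1 mouse or a pool is not stated, and the p-values therefore reflect spread between libraries that may be technical.

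The glucocorticoid receptor is a nuclear receptor that rests in the cytoplasm in a complex with heat shock protein 90 and its cochaperones. When it binds corticosterone, the main glucocorticoid of mice, it moves to the nucleus, binds palindromic response elements and induces genes such as the 6 targets here, while it represses many cytokine genes. In T cells, glucocorticoids limit activation and cytokine production, and they kill thymocytes and some mature cells. Most of the 6 targets also respond to other signals, such as growth factors, nutrients, daily rhythm or T cell stimulation.

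Several properties of the libraries went along with treatment. Library totals were 31.8 to 53.8 M counts in treated and 2.54 to 33.2 M in control libraries, and the 6 control TFH and TFR libraries held 2.54 to 15.2 M. Mitochondrially encoded genes took 1.85 to 3.17% of counts in treated and 9.5 to 16.9% in control libraries. The 12 listed immediate early genes, which respond within minutes to stimulation or handling, summed to 4262 to 14401 CPM (counts divided by scaled library totals in M) in treated and to 1788 to 3645 CPM in control libraries. Kidney transcripts stood out in 5 libraries. Proximal tubule markers summed to 59.6 CPM in treated Treg library 3, 534 CPM in treated TFH library 3, 212 CPM in treated TFR library 1 and 467 and 473 CPM in control Tconv libraries 1 and 2, and to 0 to 18.2 CPM in the other 19. All 6 podocyte markers and 6 or 7 of the 7 tubule markers were higher in these libraries than in the others of the same group. Within each treatment, the genes of the sort markers separated the gates. Cxcr5 was at 126 to 285 CPM in treated TFH and TFR and at most 46.1 CPM in treated Tconv and Treg libraries, and at 42.6 to 143 CPM in control TFH and TFR and at most 18.05 CPM in control Tconv and Treg libraries. Pdcd1, which encodes PD1, and Tnfrsf18, which encodes GITR, were higher without overlap in TFH and TFR than in Tconv and Treg libraries for Pdcd1, and in Treg and TFR than in Tconv and TFH libraries for Tnfrsf18. The summed list of 6 follicular markers did not separate the gates across treatments, with 953 to 1169 CPM in treated TFH and 918 to 1051 CPM in treated TFR, against 1122 to 1143 CPM in control Treg libraries. The summed Treg markers were at 790 to 1040 CPM in TFH libraries, against 132 to 212 CPM in Tconv libraries. Foxp3, the regulatory T cell factor, was at 499 to 598 CPM in treated TFR, 503 to 581 CPM in treated Treg, 322 to 398 CPM in control TFR and 439 to 498 CPM in control Treg libraries, and at no more than 67.3 CPM in any Tconv or TFH library. Treatment cannot be told apart from any difference in handling or batch between treated and control mice, and in bulk RNA fewer cells of a kind cannot be told apart from less RNA per cell.

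Nr3c1 (ENSMUSG00000024431.14; mm10, chromosome 18, 39410545 to 39519421, minus strand) was lower in treated than in control libraries of all 4 subsets, by little in Tconv and most in Treg and TFR cells. In Treg cells it was at 212, 208 and 211 CPM in treated and at 479.8, 464 and 486 CPM in control libraries. In TFR cells it was at 193, 204 and 196 CPM in treated and at 439, 424 and 447 CPM in control libraries. In TFH cells it was at 205, 207 and 196 CPM in treated and at 370.1, 333 and 386 CPM in control libraries. In Tconv cells it was at 183, 196 and 201 CPM in treated and at 205, 215 and 216 CPM in control libraries. Treated and control values did not overlap in any subset, and the gap was narrowest in Tconv cells. The treatment log2 fold change (log2FC) was -0.14 in Tconv, -1.18 in Treg, -0.84 in TFH and -1.15 in TFR cells. Of all 18789 genes tested, 15.4% in Tconv, 19% in Treg, 6.81% in TFH and 10.4% in TFR cells had every treated library below every control library, which is given for scale only because Nr3c1 was chosen for its difference.

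Nr3c1 varied little between treated subsets and widely between control subsets. The highest and lowest means of treated subsets were 210.4 ± 2.20 CPM in Treg and 193 ± 9.05 CPM in Tconv cells (SD, n = 3), a ratio of 1.09. Treated Treg libraries lay above those of treated TFH cells without overlap, while treated TFH overlapped treated TFR and treated TFR overlapped treated Tconv cells. Control Treg cells had the highest mean of the 8 groups at 477 ± 11.1 CPM, followed by control TFR at 437 ± 11.8, control TFH at 363 ± 27.2 and control Tconv cells at 212 ± 6.07 CPM. Control neighbours in that order did not overlap, and the ratio of Treg over Tconv cells was 2.25. The 12 treated libraries lay within 183 to 212 CPM, a range that control Tconv libraries overlapped, while the 9 control libraries of the other subsets lay within 333 to 486 CPM.

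**Figure D1:**
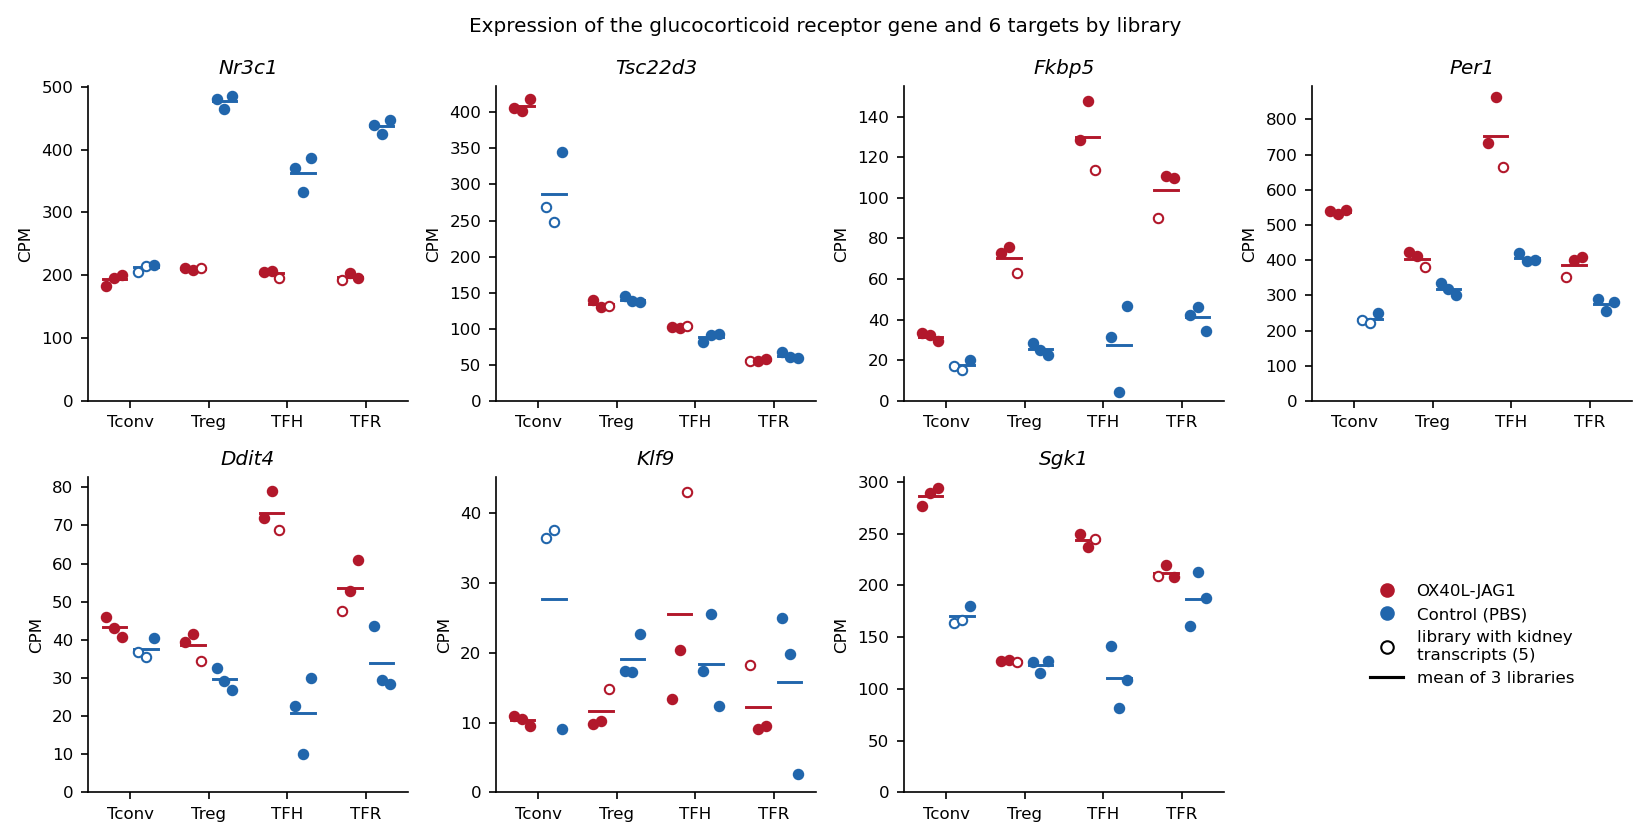
Expression in CPM of the 7 genes in each library, by subset, with treated (OX40L-JAG1) left of control (PBS) and a line at the mean of 3 libraries; open circles are the 5 libraries with kidney transcripts. Nr3c1 lies within 183 to 212 CPM in all treated libraries, while Klf9 is highest in an open circle in every group that has one.

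Tsc22d3 (ENSMUSG00000031431.13; chromosome X, 140539528 to 140600659, minus strand) encodes GILZ, a leucine zipper protein that dampens NF-kappaB and AP-1 activity and is widely used as a readout of glucocorticoid action. Its level followed the subset more than the treatment. In Tconv cells it was at 406, 402 and 418 CPM in treated and at 269, 247 and 345 CPM in control libraries. In Treg cells it was at 141, 131 and 132 CPM in treated and at 146, 138 and 137 CPM in control libraries. In TFH cells it was at 102, 102 and 104 CPM in treated and at 81.5, 91.6 and 93.1 CPM in control libraries. TFR cells had the lowest values, 54.8, 54.7 and 58.5 CPM in treated and 67.2, 61.0 and 59.3 CPM in control libraries. Treated libraries were above control libraries in Tconv (log2FC 0.51) and TFH cells (0.21), below them in TFR cells (-0.16), and overlapped them in Treg cells (-0.06). Shares of all genes with every treated above every control library were 27.5% in Tconv, 27.4% in Treg, 28.5% in TFH and 33% in TFR cells. The TFR value was -0.05 and the Treg value 0.03 when the scaling ignored receptor, immunoglobulin, haemoglobin and mitochondrial genes, so the sign in Treg cells depends on the scaling. Control Tconv libraries 1 and 2, which hold kidney transcripts, had the lower Tconv values, and without the kidney libraries the Tconv log2FC was 0.25.

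The order of the 8 groups for Tsc22d3 was Tconv, Treg, TFH and TFR, with the treated and the control group of each subset next to each other. The ratio of the highest to the lowest subset mean was 7.30 in treated mice (409 ± 8.53 CPM in Tconv over 56.0 ± 2.18 CPM in TFR cells) and 4.60 in control mice (287 ± 51.5 CPM in Tconv over 62.5 ± 4.16 CPM in TFR cells). Treated Treg and control Treg cells were the only neighbours in that order whose libraries overlapped. Per kilobase of exon, Tsc22d3 was at 3.63 to 3.92 times the level of Nr3c1 in treated Tconv and at 2.04 to 2.82 times in control Tconv libraries. The same ratio of levels was 1.11 to 1.17 in treated and 0.50 to 0.538 in control Treg libraries, 0.869 to 0.940 in treated and 0.390 to 0.487 in control TFH libraries, and 0.476 to 0.529 in treated and 0.235 to 0.271 in control TFR libraries. The treated and control ranges of this ratio did not overlap in any subset, and it is a description, since both genes were chosen for their differences.

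**Figure D2:**
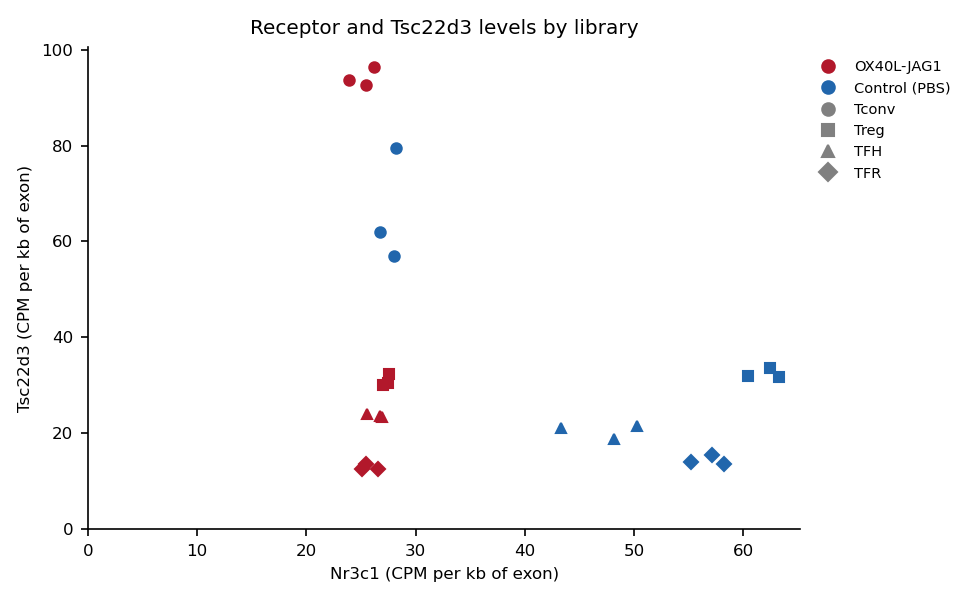
Tsc22d3 against Nr3c1 in the 24 libraries, both in CPM per kilobase of exon, with colours for treatment and symbols for subset. Treated libraries stack in a narrow column of Nr3c1 while Tsc22d3 separates their subsets; control Treg, TFH and TFR libraries lie to the right.

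A Tsc22d3 promoter is shown because it carries a single arm of the receptor's palindromic response element, AGAACA or its reverse complement TGTTCT searched on both strands, which 19% of all 32851 RefSeq promoter windows of 300 bases hold (250 before to 50 after a start, GRCm38.p6). Of the 7 genes, 6 had windows, 14 in all, and 4 of these held such an arm. The printed stretch is chrX:140600660-140600772 on the minus strand, upstream of the annotated gene and outside its exons, and the capitals mark the arm, which begins 185 bases before the RefSeq start.
Tsc22d3: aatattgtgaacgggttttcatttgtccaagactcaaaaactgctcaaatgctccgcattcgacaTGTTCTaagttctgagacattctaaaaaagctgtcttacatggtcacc

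Fkbp5 (ENSMUSG00000024222.16; chromosome 17, 28399094 to 28517527, minus strand) encodes FKBP51, a cochaperone that lowers the affinity of the receptor for hormone and so closes a negative feedback loop. It was higher in treated libraries of every subset, and the difference passed the test in Treg, TFH and TFR cells. In TFH cells it was at 129, 148 and 114 CPM in treated and at 31.3, 4.64 and 46.6 CPM in control libraries (log2FC 2.17 ± 0.38 SE, adjusted p = 0.00027). In TFR cells it was at 90.2, 111 and 110.0 CPM in treated and at 42.4, 46.4 and 34.5 CPM in control libraries (log2FC 1.33 ± 0.36, adjusted p = 0.011). In Treg cells it was at 73.0, 75.8 and 62.8 CPM in treated and at 28.5, 24.9 and 22.8 CPM in control libraries (log2FC 1.47 ± 0.36, adjusted p = 0.011). Every treated library lay above every control library in these subsets, as for 27.4% of all genes in Treg, 28.5% in TFH and 33% in TFR cells. The same held in Tconv cells (27.5% of all genes), where the test was not passed. There Fkbp5 was at 33.4, 32.4 and 29.3 CPM in treated and at 17.3, 15.1 and 20.2 CPM in control libraries (log2FC 0.86 ± 0.36, adjusted p = 0.14). Control TFH library 2 held 12 reads of Fkbp5, so its value carries a counting interval of 58.8% to either side, and the TFH call was lost when the 6 TFH libraries were fitted alone (adjusted p = 0.069). The Treg call was lost without control Treg library 2 (adjusted p = 0.054) or library 3 (adjusted p = 0.064).

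Among treated mice Fkbp5 differed between subsets (adjusted p = 0.0013 for equality of the 4 subsets). It was highest in TFH cells at 130.1 ± 17.1 CPM, then TFR at 104 ± 11.7, Treg at 70.6 ± 6.82 and Tconv cells at 31.7 ± 2.16 CPM (SD, n = 3), with no overlap between neighbours in that order. Treated TFH exceeded treated Tconv cells by a log2FC of 2.04 ± 0.37 (adjusted p = 0.00033), and treated Treg exceeded treated Tconv cells by 1.15 ± 0.36 (adjusted p = 0.038), a call that was lost when any one of these 6 libraries was left out (adjusted p = 0.063 to 0.15). In control mice the 4 subsets ran from 17.5 ± 2.56 CPM in Tconv to 41.1 ± 6.07 CPM in TFR cells, and their equality was not rejected (adjusted p = 0.056). The treatment effects in the 4 subsets did not differ past the threshold (adjusted p = 0.21), so a larger effect in TFH cells is not shown.

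Per1 (ENSMUSG00000020893.17; chromosome 11, 69095217 to 69109960, plus strand) encodes a repressor of the circadian clock that glucocorticoids induce rapidly. It passed the test as higher with treatment in all 4 subsets, the only one of the 5 tested genes to do so. In Tconv cells it was at 538, 532 and 541 CPM in treated and at 230.1, 221 and 250.3 CPM in control libraries (log2FC 1.20 ± 0.09, adjusted p = 3e-09). In TFH cells it was at 733, 863 and 663 CPM in treated and at 422, 398 and 401 CPM in control libraries (log2FC 0.89 ± 0.09, adjusted p = 2.7e-07). In TFR cells it was at 352, 401 and 409 CPM in treated and at 289, 255 and 281 CPM in control libraries (log2FC 0.49 ± 0.09, adjusted p = 0.00035). Treg cells showed the smallest difference, with 422, 411 and 379.8 CPM in treated and 336, 317 and 301 CPM in control libraries (log2FC 0.35 ± 0.09, adjusted p = 0.014). Treated and control libraries did not overlap in any subset, which held for Fkbp5 and Ddit4 too. Every treated library lay above every control library for 27.5% of all genes in Tconv, 27.4% in Treg, 28.5% in TFH and 33% in TFR cells. The Treg call of Per1 was lost without treated Treg library 1 (adjusted p = 0.069), treated Treg library 2 (adjusted p = 0.054) or control Treg library 3 (adjusted p = 0.077).

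The treatment effects on Per1 differed between subsets (adjusted p = 0.00022). The effect in Treg was smaller than in Tconv cells by 0.85 ± 0.12 on the log2 scale (adjusted p = 0.00029), and the other 3 differences of effects tested did not pass. In treated mice the order was TFH at 753 ± 101, Tconv at 537 ± 4.79, Treg at 404 ± 22 and TFR cells at 387 ± 30.7 CPM. In control mice it was TFH at 407 ± 12.7, Treg at 318 ± 17.7, TFR at 275 ± 17.4 and Tconv cells at 234 ± 14.9 CPM (SD, n = 3). Treated Treg and TFR cells overlapped each other and were the only treated neighbours to do so, while no control neighbours overlapped. Tconv cells had the lowest Per1 of the control subsets and the second highest of the treated ones. The Per1 promoter is shown because it carries an E-box, CACGTG, the element through which the clock drives Per1; 7.15% of all windows hold one, as do 3 of the 14 windows of these genes, and no Per1 window held an arm of the receptor element. The printed stretch is chr11:69098699-69098947 on the plus strand, in an intron of the annotated gene, and the capitals mark the E-box, which begins 166 bases before the RefSeq start.
Per1: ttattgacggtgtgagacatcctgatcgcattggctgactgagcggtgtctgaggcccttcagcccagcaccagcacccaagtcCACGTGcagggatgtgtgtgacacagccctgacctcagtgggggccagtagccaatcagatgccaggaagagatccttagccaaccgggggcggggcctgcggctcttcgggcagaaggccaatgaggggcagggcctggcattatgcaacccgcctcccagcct

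Ddit4 (ENSMUSG00000020108.4; chromosome 10, 59949669 to 59951834, minus strand) encodes REDD1, a stress-induced brake on the growth kinase complex mTORC1. It rose with treatment in TFH cells, where it was at 72.1, 79.1 and 68.7 CPM in treated and at 22.8, 10.05 and 29.9 CPM in control libraries (log2FC 1.77 ± 0.25, adjusted p = 2.8e-05). In TFR cells it was at 47.4, 52.7 and 61.0 CPM in treated and at 43.7, 29.4 and 28.4 CPM in control libraries (log2FC 0.66 ± 0.24, adjusted p = 0.054). Those TFR libraries did not overlap, as for 33% of all genes in that direction. The TFR difference passed the threshold under 3 of the other settings and without control TFR library 1 (adjusted p = 0.02). Treg cells had 39.5, 41.5 and 34.6 CPM in treated and 32.5, 29.3 and 27.0 CPM in control libraries (log2FC 0.38 ± 0.24, adjusted p = 0.44). Tconv cells had 46.0, 43.2 and 40.6 CPM in treated and 36.9, 35.4 and 40.4 CPM in control libraries (log2FC 0.20 ± 0.24, adjusted p = 0.71). Every treated library lay above every control library in both of these subsets, as for 27.4% of all genes in Treg and 27.5% in Tconv cells. The effect was larger in TFH than in Tconv cells by 1.56 ± 0.34 (adjusted p = 0.0054; 0.1 without the 5 kidney libraries), and the 4 effects differed (adjusted p = 0.0099). Treated TFH cells had the highest Ddit4 of the 8 groups at 73.3 ± 5.33 CPM and control TFH cells the lowest at 20.9 ± 10.1 CPM (SD, n = 3). Treated TFH exceeded treated Tconv cells by a log2FC of 0.76 ± 0.24 (adjusted p = 0.031), a call that was lost when any one of these 6 libraries was left out (adjusted p = 0.057 to 0.13) and without the kidney libraries (adjusted p = 0.12). Control TFH lay below control Tconv cells at -0.80 ± 0.25 (adjusted p = 0.021), a call that was lost with limma (adjusted p = 0.35), with only the groups compared (adjusted p = 0.3), without the kidney libraries (adjusted p = 0.16) and without control Tconv library 3 (adjusted p = 0.058). Control TFH library 2, the shallowest of all, held 26 reads of Ddit4.

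Klf9 (ENSMUSG00000033863.1; chromosome 19, 23141226 to 23168134, plus strand) encodes a zinc finger repressor that is among the most direct glucocorticoid targets in many tissues. It passed no test in the main fit of all 24 libraries by edgeR. With limma it did pass in Tconv cells, where all 5 tested genes were called, beside 55.9% of all genes. In Tconv cells it was at 10.96, 10.5 and 9.52 CPM in treated and at 36.5, 37.6 and 9.10 CPM in control libraries (log2FC -1.43 ± 0.60, adjusted p = 0.14). In TFH cells it was at 13.3, 20.4 and 43.1 CPM in treated and at 17.4, 25.5 and 12.3 CPM in control libraries (log2FC 0.49 ± 0.60, adjusted p = 0.57). The 3 libraries over 30 CPM, control Tconv 1 and 2 and treated TFH 3, are the 3 with the most proximal tubule transcripts, and in all 4 groups with a kidney library the highest Klf9 value was in one. In TFR cells it was at 18.3, 9.05 and 9.47 CPM in treated and at 25.0, 19.8 and 2.65 CPM in control libraries (log2FC -0.38 ± 0.59, adjusted p = 0.67). In Treg cells treated libraries had 9.79, 10.2 and 14.9 CPM and control libraries 17.3, 17.2 and 22.7 CPM, and these did not overlap (log2FC -0.72 ± 0.59, adjusted p = 0.6). For 19% of all genes every treated Treg library lay below every control Treg library. Without the 5 kidney libraries the Tconv log2FC was 0.19 and the TFH log2FC -0.11, both with the sign turned round and neither past the threshold. The part of kidney transcripts in the Klf9 values was not tested beyond leaving those libraries out.

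**Figure D3:**
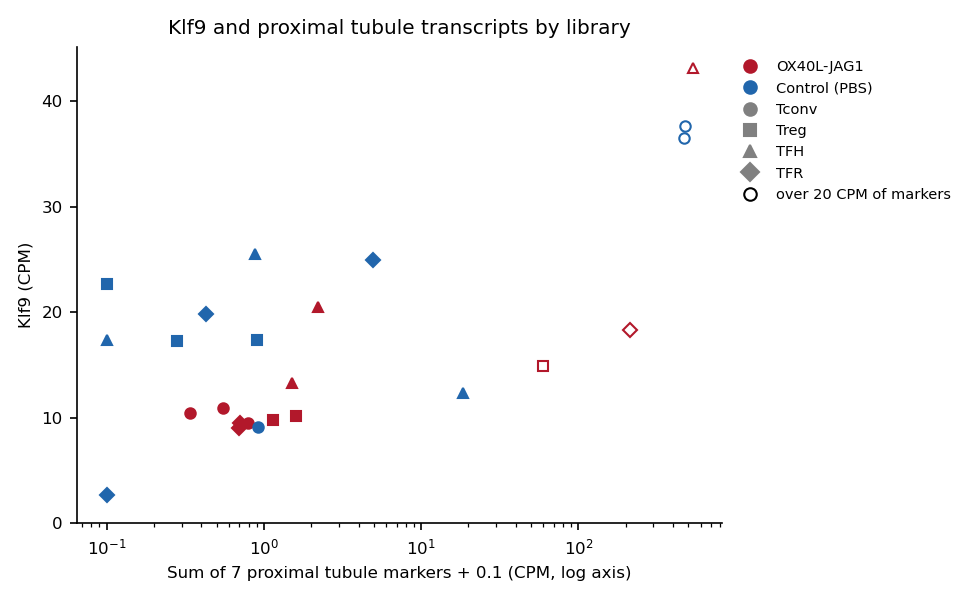
Klf9 (CPM) against the summed level of 7 proximal tubule markers plus 0.1 CPM on a log axis, one point per library; open symbols are the 5 libraries over 20 CPM of markers. The 3 libraries with the highest marker sums, 467 to 534 CPM, are also the 3 highest in Klf9 at 36.5 to 43.1 CPM.

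Sgk1 (ENSMUSG00000019970.15; chromosome 10, 21882184 to 21999903, plus strand) encodes a kinase related to AKT that phosphorylates FoxO factors and ion channel regulators and that shapes helper T cell differentiation. It rose with treatment in Tconv and TFH cells. In Tconv cells it was at 277, 289 and 294 CPM in treated and at 163, 167 and 180.3 CPM in control libraries (log2FC 0.75 ± 0.13, adjusted p = 0.00023). In TFH cells it was at 249, 237 and 244 CPM in treated and at 141, 81.9 and 109 CPM in control libraries (log2FC 1.13 ± 0.13, adjusted p = 1.6e-06). Neither pair of groups overlapped, and every treated library lay above every control library for 27.5% of all genes in Tconv and 28.5% in TFH cells. In Treg cells it was at 127, 128 and 126 CPM in treated and at 126, 116 and 127 CPM in control libraries (log2FC 0.05 ± 0.13, adjusted p = 0.92). In TFR cells it was at 209, 219 and 208 CPM in treated and at 161, 213 and 187 CPM in control libraries (log2FC 0.18 ± 0.13, adjusted p = 0.3). Treated and control libraries overlapped in both of these subsets. Without the 5 kidney libraries, which leaves 1 control Tconv library that is taken to vary like the other groups, the Tconv log2FC was 0.68 and its adjusted p = 0.12.

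The effects on Sgk1 differed between subsets (adjusted p = 0.00053). The effect in TFR was smaller than in TFH cells by 0.95 ± 0.18 (adjusted p = 0.0029), and in Treg smaller than in Tconv cells by 0.70 ± 0.18 (adjusted p = 0.035). The call for TFR against TFH was lost when only those groups were fitted (adjusted p = 0.1). The call for Treg against Tconv was lost under both other scalings (adjusted p = 0.08 and 0.11), without the kidney libraries (adjusted p = 1) and when any one of the treated Tconv, treated Treg, control Treg or first or second control Tconv libraries was left out (adjusted p = 0.06 to 0.11). Treated Treg cells had the lowest treated level at 127 ± 1.26 CPM, against 286 ± 8.80 CPM in treated Tconv, 244 ± 6.12 CPM in treated TFH and 212 ± 6.31 CPM in treated TFR cells (SD, n = 3). In control mice TFR cells were highest at 187 ± 25.7 CPM, followed by Tconv at 170.2 ± 8.91, Treg at 123 ± 6.42 and TFH cells at 111 ± 29.7 CPM. The Sgk1 promoter is shown because it holds the only full receptor palindrome, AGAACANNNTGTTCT, in the 14 windows. Exact matches stood in 3 of all 32851 windows (0.00913%), and the palindrome reads the same on both strands. The stretch is chr10:21993640-21993889 on the plus strand, in an intron of a longer annotated Sgk1 transcript. The capitals mark an E-box, which shares letters with a single arm that follows it, and the palindrome, which begins 189 bases before the RefSeq start. A match describes letters in this window, and binding was not measured.
Sgk1: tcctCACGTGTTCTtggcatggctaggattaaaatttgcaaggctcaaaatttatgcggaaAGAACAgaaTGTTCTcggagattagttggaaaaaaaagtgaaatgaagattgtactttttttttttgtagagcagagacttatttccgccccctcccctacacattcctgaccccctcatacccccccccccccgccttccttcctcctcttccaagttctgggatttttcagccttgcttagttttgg

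Counted together, 2 of the 5 tested genes were higher in treated Tconv cells (Per1 and Sgk1), 2 in Treg (Fkbp5 and Per1), 4 in TFH (all but Klf9) and 2 in TFR cells (Fkbp5 and Per1), and none was lower in any subset. Of all 18789 genes tested, 6.89% passed as higher and 3.05% as lower in Tconv cells, with 5.17% higher and 3.56% lower in Treg, 16.5% higher and 5.86% lower in TFH, and 15.6% higher and 6.39% lower in TFR cells. The median log2FC of the 5 genes was 0.75 in Tconv, 0.35 in Treg, 1.13 in TFH and 0.49 in TFR cells, beside 0.02, 0.09, 0.42 and 0.40 over all genes in the same order. Immediate early genes rose with them: 11 of 12 in Tconv, 8 in Treg, 11 in TFH and 11 in TFR cells, with Fos at 1973 ± 129 CPM in treated and 235 ± 21.7 CPM in control TFH cells. The part of immediate early induction, depth or mitochondrial share in the 5 genes was not tested.

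The test of equal subsets was passed by 4 of the 5 genes in treated mice, all but Klf9, against 23% of all genes, and by 2, Per1 and Sgk1, in control mice, against 39.7%. Equality of the 4 treatment effects was rejected for 3, Per1, Ddit4 and Sgk1, against 21.2% of all genes. Between pairs of treated subsets, 3 of 5 differed for Treg against Tconv (11.9% of all genes), 3 for TFH against Tconv (18.1%), 1 for TFR against Treg (4.61%) and 1 for TFR against TFH cells (9.57%). Between pairs of control subsets these counts were 2 for Treg against Tconv (9.3%), 3 for TFH against Tconv (25%), 1 for TFR against Treg (9.75%) and 2 for TFR against TFH cells (15.8%). Sgk1 was the gene that differed between TFR and Treg cells, higher in TFR in treated mice (log2FC 0.74 ± 0.13, adjusted p = 8e-04) and in control mice (0.60 ± 0.13, adjusted p = 0.0038). Differences of effects were called for 2 of 5 genes for Treg against Tconv (2.68% of all genes), 1 for TFH against Tconv (19.6%), none for TFR against Treg (7.49%) and 1 for TFR against TFH cells (7.05%). For TFR against Treg no gene had an unadjusted p under 0.05 in edgeR either. Pairs with a subset in common share its libraries.

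**Figure D4:**
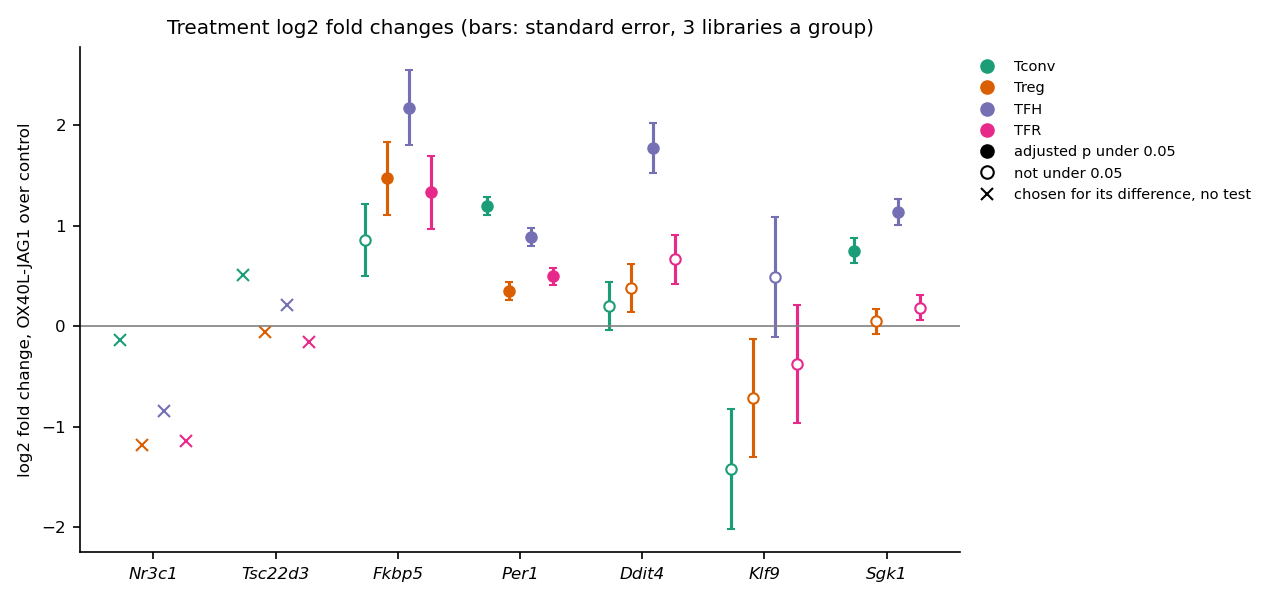
Treatment log2 fold change (treated over control) of the 7 genes in each subset, with bars for the standard error; filled circles passed an adjusted p of 0.05, and crosses mark Nr3c1 and Tsc22d3, which were not tested. The values of Fkbp5, Per1, Ddit4 and Sgk1 lie above 0 in all 4 subsets, and Ddit4 is largest in TFH cells at 1.77.

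Per kilobase of exon, the 7 genes spanned a wide range of levels. Per1 and Tsc22d3 were the highest, up to 153 CPM per kb for Per1 and 96.4 for Tsc22d3, followed by Nr3c1 with 23.9 to 63.2, Sgk1 with 16.7 to 59.9 and Ddit4 with 5.72 to 45.1 CPM per kb. Fkbp5, at 0.490 to 15.6, and Klf9, at 0.551 to 8.95 CPM per kb, were the lowest. The genes with patterns most like that of Nr3c1 over the 24 libraries, by Pearson r of log2(CPM + 1), were Camk4 (r = 0.93), a calcium-dependent kinase, Isy1 (0.92), a splicing factor, and Ralgapb (0.91), a subunit of a Ral GTPase-activating complex. For Tsc22d3 they were Ddx5 (r = 0.97), an RNA helicase, Scml4 (0.95) and Cd55 (0.95), which limits complement on the cell surface. These values describe 8 groups of 3 libraries each, ranked among 8358 genes, and the libraries share group, depth and sort. Without the 4 libraries of the podocyte rule, Ncoa2 (0.91) took the third place for Nr3c1, and Mgat4a (0.95) took it for Tsc22d3.

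Other genes known to be induced by glucocorticoids moved in both directions. Of 26 listed and tested, 6 rose and 1 fell in treated Tconv, 3 rose and 4 fell in Treg, 7 rose and 2 fell in TFH, and 9 rose and 3 fell in TFR cells. For this list and those below, the shares of all genes that passed are the measure of scale. They were 6.89% higher and 3.05% lower in Tconv and 5.17% and 3.56% in Treg cells. In TFH they were 16.5% and 5.86%, and in TFR cells 15.6% and 6.39%. The median log2FC of the induced list was -0.03, -0.11, 0.47 and 0.83 in that order of subsets, beside 0.02, 0.09, 0.42 and 0.40 over all genes. Dusp1, a phosphatase that limits MAP kinases, Zfp36, which destabilises cytokine mRNAs, and Il1r2, a decoy receptor for interleukin-1, rose in all 4. Dusp1 was at 2034 ± 41.0 CPM in treated and 446 ± 66.6 CPM in control Tconv cells (log2FC 2.19 ± 0.10, adjusted p = 2.6e-12). Zfp36 was at 1127 ± 109 CPM in treated and 312 ± 80.2 CPM in control TFH cells (log2FC 1.86 ± 0.14, adjusted p = 3.4e-09). Nfkbia, the inhibitor of NF-kappaB, rose in 3 subsets and was at -0.04 ± 0.08 in Treg cells. Rgs2, a regulator of G protein signalling, fell in Treg (log2FC -0.95 ± 0.09), TFH (-0.90 ± 0.09) and TFR cells (-0.63 ± 0.09) and was at -0.01 ± 0.09 in Tconv cells. Dusp1 and Zfp36 are also induced by stimulation, and the strand setting of the counts is not given, so reads of these genes, of Foxp3, and of Ifng, Cxcl10, Icam1, Hspa1a, Hspa8, Dnaja1, Abcb1a, Abcb1b, Arntl, Bhlhe40, Foxo1, Ncor1 and Nr3c2 named below, cannot be told apart from those of genes that overlap them.

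Cytokine and inflammatory genes known to be repressed by glucocorticoids were higher in treated cells where they passed the test, with 1 exception. Of 19 listed, 16 were tested, and 7 rose in Tconv, 7 in Treg, 8 in TFH and 8 in TFR cells, while Cd40lg fell in TFR cells (log2FC -0.59 ± 0.20, adjusted p = 0.038). Ccl4, Ccl5, Cxcl10, Icam1, Ifng and Tnf rose in all 4 subsets, though the Treg call of Tnf was lost without treated Treg library 1 or control Treg library 3 (adjusted p = 0.06 each). Ccl5, a chemokine, was at 245 ± 9.22 CPM in treated and 9.05 ± 3.49 CPM in control TFR cells (log2FC 4.74 ± 0.23, adjusted p = 5.5e-12). Ifng, which encodes interferon-gamma, was at 42.8 ± 0.713 CPM in treated and 2.1 ± 1.07 CPM in control Tconv cells (log2FC 4.33 ± 0.28, adjusted p = 2.9e-10). Cxcl10, an interferon-induced chemokine, was at 180.2 ± 10.6 CPM in treated and 45.8 ± 5.58 CPM in control Treg cells (log2FC 1.98 ± 0.17, adjusted p = 4.1e-08). The list's median log2FC was 2.00 in Tconv, 0.77 in Treg, 2.24 in TFH and 2.84 in TFR cells. With genes that had no read in one group set at their bound against 3 reads over that group, it was 1.58, 0.77, 1.65 and 1.4.

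The receptor's chaperones were called higher in treated cells of every subset, 9 of 16 in Tconv, 8 in Treg, 11 in TFH and 13 in TFR cells, and Bag1, a nucleotide exchange factor of heat shock protein 70, fell in TFH cells (log2FC -0.39 ± 0.12, adjusted p = 0.028). Hsp90aa1 and Hsp90ab1, the 2 cytosolic forms of heat shock protein 90, rose in all 4 subsets, as did Hspa8, Hspa1a, Hspa1b, Dnaja1 and Dnajb1. Hspa1b, a heat-inducible form of heat shock protein 70, was at 4325 ± 208 CPM in treated and 479 ± 53.2 CPM in control Tconv cells (log2FC 3.17 ± 0.13, adjusted p = 8.6e-13). Hsp90aa1 was at 1518 ± 81.7 CPM in treated and 492 ± 31.4 CPM in control TFR cells (log2FC 1.63 ± 0.09, adjusted p = 5.5e-11). Fkbp4, which encodes FKBP52, the cochaperone that promotes receptor transport and opposes FKBP51, rose in Tconv, TFH and TFR cells and was at -0.12 ± 0.14 in Treg cells, where Fkbp5 rose. Heat shock genes also respond to handling, and that part was not tested.

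Coregulators of nuclear receptors moved in both directions: of 12, 1 rose and 1 fell in Tconv, 2 rose and 1 fell in Treg, 4 rose and 2 fell in TFH, and 1 rose and 5 fell in TFR cells. In Tconv cells 6.89% of all genes passed as higher and 3.05% as lower, so single calls do not stand out there. Ncoa2, a coactivator of the receptor also known as GRIP1, fell in Treg, TFH and TFR cells, while Nr3c1 was lower in all 4 subsets. Ncoa2 was at 253 ± 16.7 CPM in treated and 459 ± 41.5 CPM in control TFR cells (log2FC -0.86 ± 0.08, adjusted p = 1.5e-07). Its log2FC in Tconv cells was -0.02 ± 0.08. Its TFH call was lost with limma (adjusted p = 0.053). Ncor1, a corepressor, rose in Tconv (log2FC 0.37 ± 0.07; adjusted p = 0.095 without the 5 kidney libraries) and Treg cells (0.39 ± 0.07). Among genes of steroid metabolism and efflux, 8 of 10 were tested. Abcb1b, a drug and steroid efflux pump, fell in all 4 subsets and was at 63.0 ± 2.11 CPM in treated and 155 ± 22.4 CPM in control Tconv cells (log2FC -1.30 ± 0.14, adjusted p = 4.8e-07). Its TFR call was lost with limma (adjusted p = 0.061) and without the 5 kidney libraries (adjusted p = 0.052). Its paralog Abcb1a fell in Tconv, TFH and TFR cells. Nr3c2, the mineralocorticoid receptor gene, was at 1.35 ± 0.361 CPM in treated and 8.98 ± 7.12 CPM in control Tconv cells (log2FC -2.73 ± 0.75, adjusted p = 0.021), and this sign reversed to 0.83 without the kidney libraries. The list counts were 3 lower in Tconv, 1 lower in Treg, 2 higher and 3 lower in TFH, and 1 higher and 3 lower in TFR cells.

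Of 13 other clock genes, 1 rose in each subset, which was Bhlhe40 in all 4, a clock repressor that is also induced by T cell activation. Of all genes, 6.89% in Tconv, 5.17% in Treg, 16.5% in TFH and 15.6% in TFR cells passed as higher, so 1 of 13 does not stand out. Bhlhe40 was at 201 ± 4.28 CPM in treated and 47.0 ± 5.10 CPM in control Tconv cells (log2FC 2.10 ± 0.13, adjusted p = 1.4e-10). None fell in Tconv, 1 in Treg, 2 in TFH and 4 in TFR cells. Arntl, which encodes the clock activator BMAL1, fell in TFH (log2FC -0.91 ± 0.15, adjusted p = 0.00015) and TFR cells (-0.56 ± 0.15, adjusted p = 0.0092). The TFR libraries overlapped, and that call was lost with only the groups compared (adjusted p = 0.096), without the kidney libraries (adjusted p = 0.093) and without control TFR library 2 (log2FC -0.36, adjusted p = 0.081). Per2, the paralog of Per1, passed the test in no subset, with a log2FC of -0.24 to 0.92. The time of day of collection is not given in the labels.

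FoxO factors and their targets, which Sgk1 acts on, and brakes on mTORC1, which Ddit4 belongs to, also moved both ways. Of 14, 2 rose in Tconv, 1 rose and 4 fell in Treg, 3 rose and 5 fell in TFH, and 4 rose and 4 fell in TFR cells. Klf2, a FoxO target of resting cells, rose in all 4 subsets and was at 387 ± 32.5 CPM in treated and 55.7 ± 10.4 CPM in control TFH cells (log2FC 2.78 ± 0.13, adjusted p = 3.5e-12). Foxo1 fell in Treg (log2FC -0.82 ± 0.12), TFH (-0.49 ± 0.12) and TFR cells (-0.76 ± 0.12) and was at -0.10 ± 0.12 in Tconv cells. Tsc1, a subunit of the complex that REDD1 acts through, fell in the same 3 subsets. Family members of the 7 genes were mostly higher where they passed: of 17, 6 rose and 3 fell in Tconv, 3 rose in Treg, 8 rose and 1 fell in TFH, and 7 rose in TFR cells. Klf2, Klf4 and Klf6, related to Klf9, rose in all 4 subsets, where Klf9 passed no test in the main fit. The TFR call of Klf6 was lost with limma (adjusted p = 0.052).

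**Figure D5:**
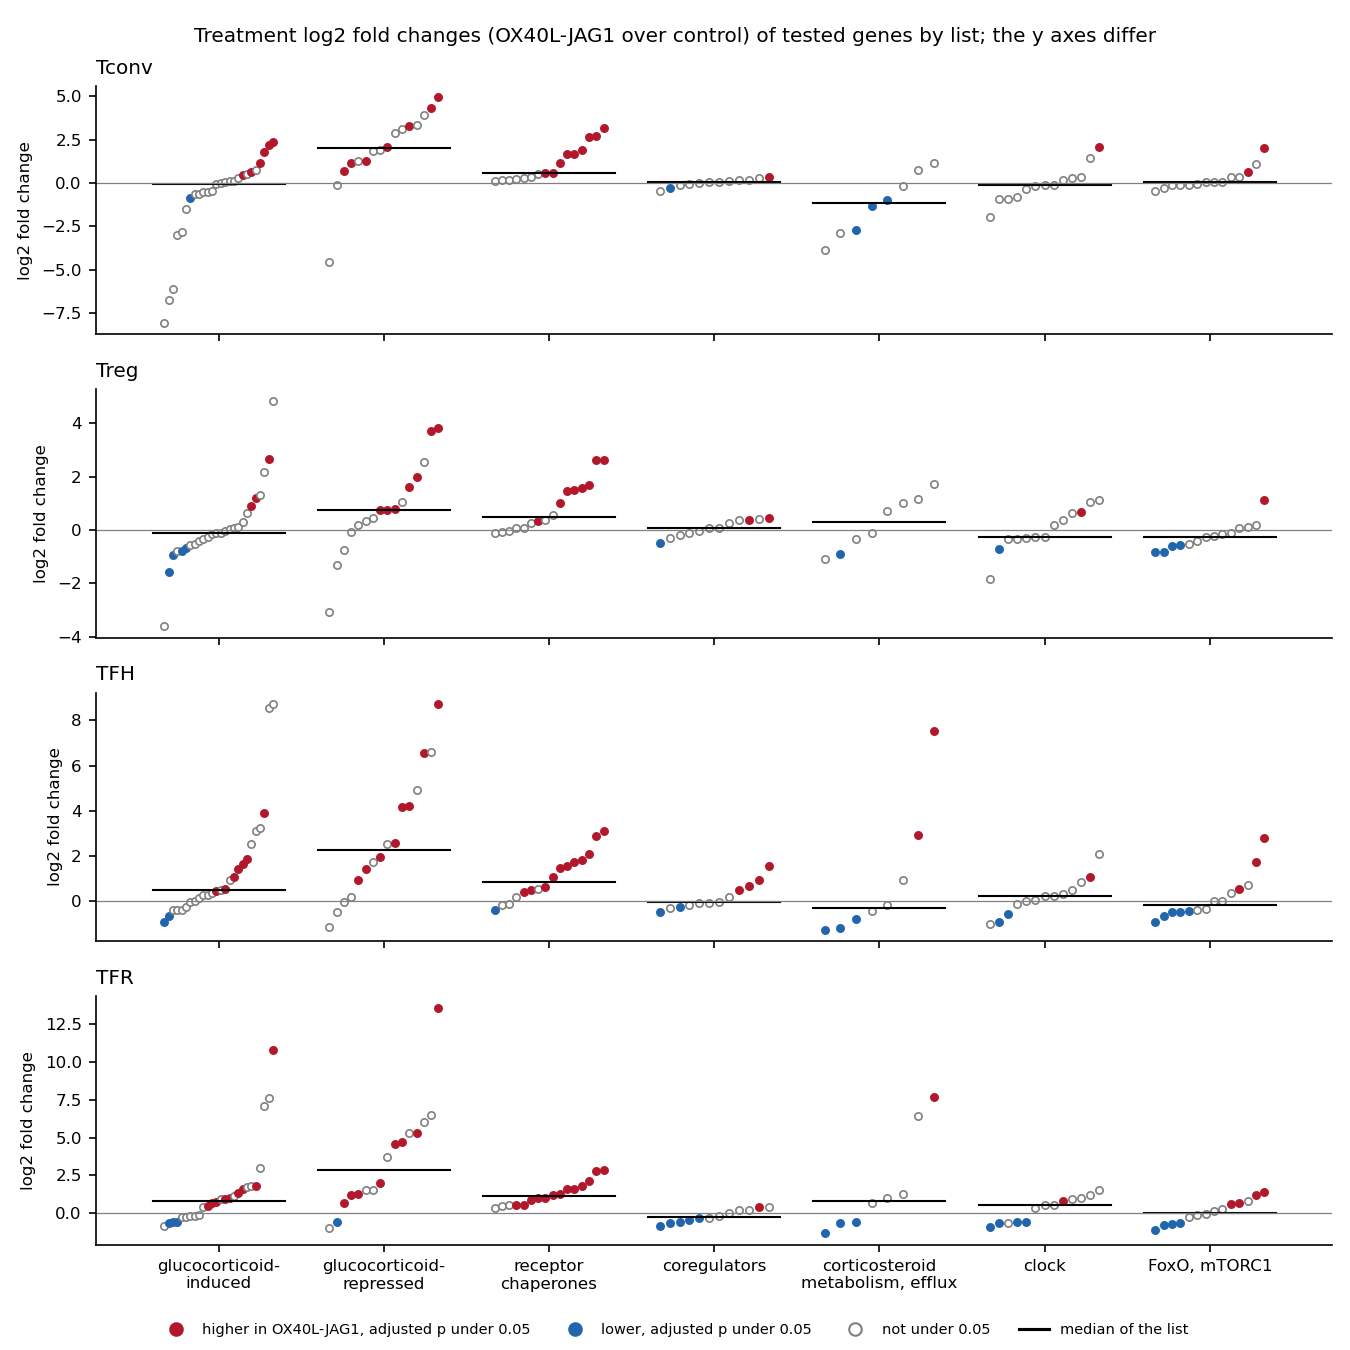
Treatment log2 fold change (treated over control) of each tested gene of 7 lists, 1 panel per subset with its own y axis, genes in order of value and a line at the list's median; coloured points passed an adjusted p of 0.05. Glucocorticoid-repressed genes and receptor chaperones that passed lie above 0 in all but 2 cases, while induced genes lie on both sides.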

How the data were processed

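Total RNA libraries were prepared after column purification, DNase digestion and removal of ribosomal RNA, per the labels' protocols. The deposited values are raw counts per gene; per the submitters' processing notes, reads were handled with STAR and featureCounts on mm10, in versions and with a strand setting not given in the sources used here. IDs were matched to GENCODE M21 symbols without version suffix (38872 of 39056).

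Genes with low counts were removed with filterByExpr, leaving 18789. Counts were scaled by TMM and fitted with 1 mean for each of 8 groups over all 24 libraries by edgeR 4.0.16 (R 4.3.3, quasi-likelihood). The dispersion of a gene was shared by all groups, although their spread differed. Control TFH libraries had the largest biological coefficient of variation (1.05), then control TFR (0.93), and treated Tconv libraries the smallest (0.075). P-values of the main fit can therefore be too large for narrow groups and too small for control TFH and TFR cells. P-values were adjusted over all tested genes by the Benjamini-Hochberg method at 0.05, and SE is the log2 fold change divided by the square root of F. Fkbp5 had as few as 12 reads in a library and Klf9 14, for Wilson 95% intervals reaching up to 58.8 and 54.1% to either side; these intervals cover counting error only. The steps were tested on simulated data with 1 dispersion per gene shared by all groups, so that test does not cover the unequal spread of the groups here.

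The members and gene lists were chosen with earlier results of these data known. Named list genes were up to 3 per list and subset with the smallest p past the threshold; genes called in all 4 subsets, Per2 and single exceptions were named after their values were seen. Deviations from the group mean correlated at -0.071 to 0.095 between same-numbered treated and control libraries of a subset, over 12 pairs. The main fit did not pair samples by number. The check compared treated with control mice, so it cannot show whether same-numbered libraries of different subsets came from the same mice. That pairing was not tested. Alternatives were 2 other scalings, no filter, DESeq2 1.42.0, limma 3.58.1, robust dispersions, a replicate block, only the groups compared, thinning to 2.54 M counts, leaving out kidney libraries and leaving out each library. Promoter sequences are from RefSeq, GRCm38.p6.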

Additional observations from a re-analysis of the deposited data

Results flagged for a closer look

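The treatment effect differed between subsets for 3 of the 5 tested genes, by a test of the difference itself. For Per1 the effect in Treg minus that in Tconv cells was -0.85 on the log2 scale. For Sgk1 it was -0.70 in Treg minus Tconv and -0.95 in TFR minus TFH cells. For Ddit4 it was 1.56 in TFH minus Tconv cells. Some of these calls were not kept under other settings. The Sgk1 call for Treg minus Tconv was lost under both other scalings and when most single libraries of those groups were left out. The Sgk1 call for TFR minus TFH was lost when only those groups were fitted. The Ddit4 call was lost without the 5 kidney libraries, a fit that leaves 1 control Tconv library. Tsc22d3 moved in opposite directions without overlap of libraries, with a log2 fold change of 0.51 in Tconv, 0.21 in TFH and -0.16 in TFR cells. This difference was not tested, since the gene was chosen for differing between groups. The TFR gap was narrow, with treated library 3 at 58.5 CPM and control library 3 at 59.3 CPM (counting interval 53.1 to 66.3 CPM). The TFR value shrank when the scaling ignored receptor, immunoglobulin, haemoglobin and mitochondrial genes, and the Tconv value shrank without the kidney libraries.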

How the results depend on the processing

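Of 360 alternative values for the treatment effects of the 5 tested genes, 336 stayed on their side of the threshold, 15 newly passed and 9 no longer passed. Of 144 for Nr3c1 and Tsc22d3, which were not tested, 15 moved beyond the spread. In Tconv cells, where 2 of the 5 genes passed, 5 passed with limma and 4 with only the groups compared. In Treg cells (2), 4 passed with limma and 4 with only the groups compared. The share of all genes passing moved too. With limma it was 55.9% in Tconv and 34.6% in Treg cells, and with only the groups compared 36.8% and 40.9%. In the main fit it was 9.94% and 8.73%. The 3 ways to leave out kidney libraries, 2 of them added after seeing the data, leave 1 control Tconv library, so no counts are given for them. Under each of them fewer of the 5 genes passed in Tconv cells, and fewer of all genes passed too. Subset differences in control mice (2) were 4 under relative log expression scaling and 4 by DESeq2, beside 40.4% and 48.1% of all genes, and 39.7% in the main fit. Pairwise differences of effects (4) were 8 by DESeq2 and 7 after thinning. They were fewer by the podocyte rule and without the 5 kidney libraries, where calls over all genes were fewer too. Shares of all genes for these differences ran from 7.76 to 24.1% by DESeq2 and from 2.64 to 16.5% after thinning. In the main fit they ran from 2.68 to 19.6%. With only the groups compared, the share for TFR against TFH cells was 0.53%, against 7.05% in the main fit. For Treg against Tconv cells it was 18.2%, against 2.68%. Between control TFR and control TFH cells, 0.564% of all genes differed in that setting, against 15.8% in the main fit. Calls in the glucocorticoid-induced list were 22 with limma and 13 with only the groups compared in Tconv (7), 14 and 14 in Treg (7), and 5 with limma in TFH cells (9). The Tconv and Treg shares above apply to them, and in TFH cells 7.31% of all genes passed with limma, against 22.4%.

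Leaving out 1 library each, calls ranged over 2 to 3 in Tconv, 0 to 2 in Treg (0 without control Treg library 3), 4 to 4 in TFH and 2 to 3 in TFR cells. They ranged over 3 to 4 for subsets in treated mice, 2 to 4 in control mice, 14 to 20 for subset pairs, 3 to 4 for the interaction and 3 to 6 for differences of effects. For the induced list they were 5 to 8, 6 to 7, 7 to 11 and 10 to 13 in Tconv, Treg, TFH and TFR cells. Nr3c2 in Tconv cells reversed to 0.83 in all 3 alternatives without kidney libraries. With the replicate block, Fkbp5 in treated Treg against Tconv cells (adjusted p = 0.055) and the Sgk1 difference of effects in Treg against Tconv cells (adjusted p = 0.057) no longer passed. The block gives same-numbered libraries of all groups a shared term, across treated and control mice, so it is not a pairing of subsets within a mouse. Of 12 treated libraries, 7 correlated best with the control library of their own number, out of 3 control libraries of their subset. Same-number correlations were -0.071 to 0.095. Per1 and Sgk1 in control Treg against Tconv cells no longer passed without kidney libraries, nor Per1 and Sgk1 in control TFR against TFH or Sgk1 in control TFH against Tconv cells with limma or with only the groups compared. The causes were not tested. Relative log expression scaling moved the median of all genes by -0.10 in Tconv cells, and the scaling without receptor, immunoglobulin, haemoglobin and mitochondrial genes by 0.11 in TFR cells. Low depth of control TFH and TFR libraries limits Fkbp5, Ddit4 and Klf9.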
